A study of Mus musculus with 8 samples.

Results

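Potassium channels set the resting potential of heart muscle cells and end each action potential by letting potassium leave the cell. Each channel is built from pore-forming subunits, often joined by auxiliary subunits that alter gating or carry the pore to the membrane. In the mouse ventricle, fast voltage-gated currents carry much of the repolarisation, whereas larger mammals lean more on the delayed rectifiers, and the set of subunits still changes in the days after birth.

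The genes described here are those of the deposited mouse table whose symbol starts with Kcn, the prefix for potassium channel pore subunits, their auxiliary subunits and a few relatives. There were 96 such gene IDs with 94 distinct symbols among 37982 genes, since Kcnh8 and Kcnb2 each appear under 2 IDs. Expression is given as FPKM, the fragments mapped to a gene scaled to its transcript length and to the library's total, a level that can be set side by side between genes. A gene was described where its FPKM was 1 or more in any group, which held for 39 IDs. The remaining 57 stayed under 1 FPKM in every group, and 10 of them were listed at 0 throughout.

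RNA came from the ventricles of C57BL/6 mice at postnatal day 7, with the atria removed. The triple mutant group had 3 samples, the double mutant group 3 and the wild type group 2. As known from the study and not from the labels, the double mutants carry changed alleles of Mkl2, a coactivator of serum response factor, and Myh7, the beta myosin heavy chain. The triple mutants carry those same alleles and a changed allele of Nkx2-5, a transcription factor of the homeodomain class that heart muscle needs. The comparison of triple with double mutants therefore differs by the Nkx2-5 allele. Wild type differs from double mutants by the allele pair, and from triple mutants by that pair and the Nkx2-5 allele. The deposited table gives 1 FPKM per gene and group, so no value per sample, no spread between samples and no read depth can be stated. Differences are called from the authors' Cuffdiff test at a q-value under 0.05, adjusted over all genes and all 3 comparisons. The sources used here do not say how many libraries entered that test or whether samples came from separate litters, so its p-values measure only the spread between the libraries entered.

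Before the channel genes, the groups themselves differed in a way the labels do not name. The summed FPKM of 4 Y-linked genes was 54.2 in triple mutants, 73.7 in double mutants and 21.9 in wild type. Xist, transcribed from the inactive X chromosome, was at 88.2 FPKM in triple mutants and 1.21 in double mutants, and its wild-type value is a failed estimate. The sex make-up of the groups thus moves with genotype and cannot be told apart from it in any result below. Of the described channel genes, Kcnd1 and Kcne1l are X-linked. All 8 ventricular cardiomyocyte markers (Myl2 and Tnni3 among them) hold failed estimates because they had too many fragments, so they could not be used as a check of the tissue. Of 5 atrial markers, 3 were under 1 FPKM in every group: Myl7 reached at most 0.137 FPKM, Sln 0.190 and Bmp10 0.409. Myl4 was measured, at 9.88 FPKM in triple mutants, 7.95 in double mutants and 7.30 in wild type, without a call. Nppa, which young ventricles also express, was at 829 FPKM in triple mutants, 505 in double mutants and 919 in wild type. In the authors' deposited table Nppa rose by 0.72 on the log2 scale in triple over double mutants and fell by 0.86 in double mutants relative to wild type (q = 0.0066 for both). The Nkx2-5 transcript was at 55.2 FPKM in triple mutants, 53.1 in double mutants and 43.6 in wild type, without a call, and a changed allele need not alter its level.

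The 39 described genes covered all channel classes unevenly. Among 15 inward rectifier genes 8 were described, among 32 voltage-gated pore subunit genes 11, among 16 auxiliary subunit genes 10, and among 14 tandem-pore leak channel genes 4. Calcium- and sodium-activated channels had 4 of 8 described, and the electrically silent voltage-gated subunits, which form no channel alone, 1 of 10. Kcnrg, a regulator of voltage-gated channels and not a subunit, completes the list. The share described was 40.6% of the Kcn genes, against 38.4% of all genes in the table. There were 33 genes at 1 FPKM or more in every group. The number at or above that level was 37 in triple mutants, 37 in double mutants and 35 in wild type. At the threshold, Kcnmb1 was just inside, with 0.975 FPKM in triple mutants, 1.0004 in double mutants and 0.841 in wild type. Kcnip3 was just outside, with 0.933 FPKM in triple mutants, 0.968 in double mutants and 0.909 in wild type. Of the 57 genes under the threshold, 28 stayed under 0.1 FPKM in every group.

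**Figure D1:**
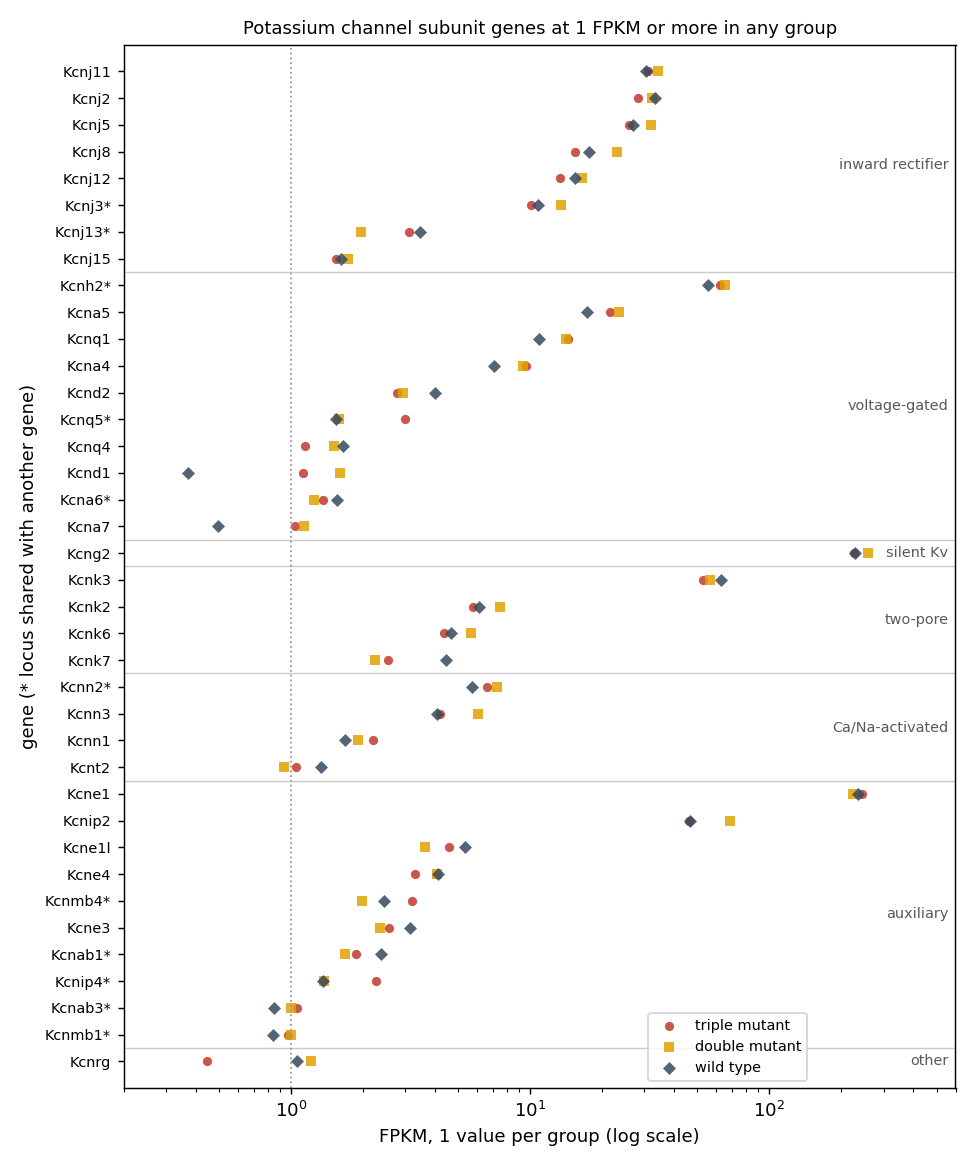
FPKM of 38 of the 39 described potassium channel genes on a log axis, 1 point per group (triple mutant, double mutant, wild type), ordered by channel class and then by level, with an asterisk at shared loci and a dotted line at 1 FPKM. The levels span from Kcng2, at 226 FPKM in triple mutants, 257 in double mutants and 228 in wild type, down to genes near 1 FPKM, and for most genes the group points lie close together.

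A few genes held most of the signal. The 39 genes summed to 882 FPKM in triple mutants, 955 in double mutants and 880 in wild type. The leading pair, Kcng2 and Kcne1, made up 53.4% of that sum in triple mutants, 50.4% in double mutants and 52.5% in wild type. There were 14 genes at 10 FPKM or more in a group, 6 at 5 to under 10, and 19 at 1 to under 5. Among the 20 genes at 5 FPKM or more in a group, every one varied by less than 1.5-fold over the groups, with a median ratio of highest to lowest group of 1.28, against 1.22 over all genes at that level. Among the 19 lower genes, 11 varied by less than 1.5-fold, with a median ratio of 1.43.

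Kcng2, an electrically silent subunit that joins other voltage-gated pores and changes their gating, was at 226 FPKM in triple mutants, 257 in double mutants and 228 in wild type. Its level rests on a very short annotated stretch. The file places the gene at chr18:80492368-80493072 (mm9), 0.705 kb, against a longest transcript of 2.813 kb in GENCODE M21. Kcng2 thus had a listed stretch of 1.01% of its GENCODE M21 span, which counts introns too. It was the 1 gene of 26 described single-locus members whose listed locus covered under 50% of that span. Its rank against genes counted over full transcripts is therefore uncertain, while its ratios between groups use the same stretch.

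Kcne1, the auxiliary subunit of the slow delayed rectifier, was at 244 FPKM in triple mutants, 224 in double mutants and 234 in wild type. Kcnq1, the pore that Kcne1 partners, was far lower, with 14.4 FPKM in triple mutants, 14.1 in double mutants and 10.9 in wild type. Kcnq1 thus stood higher in both mutant groups than in wild type, by 0.41 (triple mutant) and 0.38 (double mutant) on the log2 scale in the authors' deposited table, and neither passed the test (q = 0.166 for triple and 0.225 for double mutants). Kcnh2, the pore of the rapid delayed rectifier, was at 62.0 FPKM in triple mutants, 65.1 in double mutants and 55.4 in wild type. Its locus is shared in the file with another gene, so reads of that gene may be joined to it. The lowest q of Kcnh2 in the authors' deposited table was 0.818.

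The Kcnip2 transcript gave the clearest difference of the set. Kcnip2 encodes a calcium-binding auxiliary subunit of the fast transient outward current, and mice without it lose that current. It was at 46.2 FPKM in triple mutants, 68.4 in double mutants and 46.4 in wild type. The double mutant was the one group that stood apart, and the triple mutant and wild-type levels nearly coincided. In the authors' deposited table Kcnip2 fell by 0.57 on the log2 scale in triple mutants relative to double mutants, or 1.48-fold (p = 5e-05, q = 0.0066). It rose by 0.56 in double mutants over wild type, or 1.47-fold, in the authors' deposited table (p = 1e-04, q = 0.0114). These results share the double mutant group and are not independent of each other. Triple mutants and wild type differed by -0.01, with a 95% interval of -0.52 to 0.51 taken from the deposited statistic, so a change of up to about that size is not excluded by these data (authors' deposited table, q = 0.994). The standard error implied by the deposited p-value was 0.14 for triple against double mutants, and 0.25 from the deposited statistic. With the deposited statistic read as a normal z, a setting chosen after the data were seen, both Kcnip2 calls were lost. In bulk tissue, fewer cells of a type and less RNA per cell cannot be told apart.

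Kcnd2, the main pore subunit of that same current, followed another order. It was at 2.79 FPKM in triple mutants, 2.94 in double mutants and 3.99 in wild type, so both mutant groups were below wild type. The differences from wild type were -0.52 in triple mutants and -0.44 in double mutants on the log2 scale in the authors' deposited table, and neither passed the test (q = 0.105 for triple and 0.185 for double mutants). Kcnd3, the other pore subunit of the fast transient outward current, was under the threshold, with 0.528 FPKM in triple mutants, 0.453 in double mutants and 0.438 in wild type. The auxiliary subunits Dpp6 and Dpp10, which lie outside the Kcn symbols, were near or at 0: Dpp6 reached at most 0.0118 FPKM and Dpp10 was listed at 0 in every group. At the level of transcripts per length, Kcnip2 therefore exceeded its pore partner Kcnd2 in every group.

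The promoters of Kcnip2, of Kcnd2 and of Kcnj8, the other called gene, are printed because these genes carry the calls and their contrast. They are the 250 bases before the start site, from RefSeq on GRCm38.p6, read in the direction of transcription. Capitals mark AAGTG on either strand, the core of the site that Nkx2-5 binds. Kcnip2 lies at chr19:45816064-45816313 on the minus strand, Kcnj8 at chr6:142571615-142571864 on the minus strand and Kcnd2 at chr6:21215096-21215345 on the plus strand.
Kcnip2: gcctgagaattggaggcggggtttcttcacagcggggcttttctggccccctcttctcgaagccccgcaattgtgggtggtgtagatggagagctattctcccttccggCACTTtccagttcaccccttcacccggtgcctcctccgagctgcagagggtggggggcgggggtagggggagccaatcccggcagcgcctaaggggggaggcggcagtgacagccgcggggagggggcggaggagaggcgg
Kcnj8: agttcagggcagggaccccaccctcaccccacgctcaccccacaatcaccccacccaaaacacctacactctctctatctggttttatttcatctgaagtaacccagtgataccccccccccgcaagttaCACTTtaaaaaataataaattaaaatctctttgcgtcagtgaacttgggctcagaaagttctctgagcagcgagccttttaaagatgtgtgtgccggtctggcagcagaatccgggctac
Kcnd2: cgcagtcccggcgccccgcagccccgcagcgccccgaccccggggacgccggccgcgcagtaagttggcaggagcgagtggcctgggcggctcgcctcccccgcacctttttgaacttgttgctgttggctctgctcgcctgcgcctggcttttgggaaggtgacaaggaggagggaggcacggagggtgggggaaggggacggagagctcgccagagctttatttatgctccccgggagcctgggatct
Kcnip2 holds 1 such match, whose first base is at position -141 from the start site, Kcnj8 holds 1, at position -120, and Kcnd2 holds none. The match is common: AAGTG on either strand occurs in 40.7% of the 32851 promoters in the table at this length. Counted by gene, 13 of 28 described Kcn genes (46.4%) and 22 of 42 Kcn genes under 1 FPKM (52.4%) hold it, against 44.3% of the 27025 genes in the table. None of the 3 promoters holds ACANNTGT on either strand, a motif bound by Iroquois factors that 6.31% of promoters hold, or a CArG box, the site of serum response factor, present in 1.47%. A match describes these letters and is not evidence of binding.

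Among the inward rectifiers, which hold the resting potential and carry the currents gated by ATP and by acetylcholine, Kcnj8 gave the other call. Kcnj8 is the pore of the ATP-sensitive channel of vascular smooth muscle and pericytes. It was at 15.4 FPKM in triple mutants, 23.1 in double mutants and 17.6 in wild type, with the double mutant again the highest. In the authors' deposited table Kcnj8 fell by 0.58 on the log2 scale in triple mutants relative to double mutants, or 1.497-fold (p = 1e-04, q = 0.0114). The double mutant level lay 0.39 above wild type in the authors' deposited table without passing the test (q = 0.174). The standard error implied by the deposited p-value for triple against double mutants was 0.15, and 0.26 from the deposited statistic, under which this call too was lost. The 7 pericyte markers were all measured, none was called, and they summed to 283 FPKM in triple mutants, 350 in double mutants and 313 in wild type. Rgs5 carried most of that sum, with 213 FPKM in triple mutants, 272 in double mutants and 233 in wild type. Higd1b had the opposite order, with 7.45 FPKM in triple mutants, 6.32 in double mutants and 6.89 in wild type. Cspg4 was highest in wild type, with 17.0 FPKM in triple mutants, 17.4 in double mutants and 22.2 in wild type. The remaining pericyte markers had the order of the sum. The median log2 difference of the 7 markers was -0.20 for triple against double mutants and 0.05 for double mutants against wild type. The order of the pericyte sum was not particular to that cell type. The 4 fibroblast markers summed to 355 FPKM in triple mutants, 450 in double mutants and 386 in wild type. Their median log2 difference for triple against double mutants was -0.33, and that of the 6 endothelial markers was -0.23. The endothelial sum did not share the order: it was 437 FPKM in triple mutants, 498 in double mutants and 500 in wild type. The 4 smooth muscle markers ran the other way from Kcnj8, with a sum of 266 FPKM in triple mutants, 179 in double mutants and 211 in wild type. Acta2, smooth muscle actin, makes up most of it and rose by 0.59 in triple over double mutants in the authors' deposited table (q = 0.0066). The part of any of these cell types in the Kcnj8 difference was not tested.

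Kcnj8 and Abcc9, which encodes the sulfonylurea receptor that partners its pore, lie 16.5 kb apart on chromosome 6. Abcc9 was at 66.6 FPKM in triple mutants, 77.8 in double mutants and 66.0 in wild type, at a locus shared with another gene. Kcnj11, the ATP-sensitive pore of ventricular muscle cells, and Abcc8, which encodes a further sulfonylurea receptor, lie 4.29 kb apart on chromosome 7. Position does not say which receptor a pore joins in this tissue. Kcnj11 was at 31.2 FPKM in triple mutants, 34.2 in double mutants and 30.4 in wild type, and Abcc8 was at 5.38 FPKM in triple mutants, 4.56 in double mutants and 5.54 in wild type. Neither Kcnj11 nor Abcc8 nor Abcc9 passed the test in any comparison.

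Kcnj2, the main pore of the ventricular inward rectifier current, was at 28.1 FPKM in triple mutants, 32.3 in double mutants and 33.4 in wild type. Kcnj12, a further subunit of that current, was at 13.3 FPKM in triple mutants, 16.5 in double mutants and 15.4 in wild type. Both were lowest in triple mutants and neither passed the test. Kcnj4, the remaining subunit of that current, was under the threshold, at 0.724 FPKM in triple mutants, 0.578 in double mutants and 0.478 in wild type. Kcnj5 and Kcnj3 form the acetylcholine-activated channel of atria and pacemaker cells, yet both were readily measured in this atria-free tissue. Kcnj5 was at 25.8 FPKM in triple mutants, 32.1 in double mutants and 26.8 in wild type. Kcnj3, whose locus is shared, was at 10.1 FPKM in triple mutants, 13.5 in double mutants and 10.8 in wild type, and its difference of -0.43 between triple and double mutants did not pass (authors' deposited table, q = 0.119). Conduction system markers summed to 41.3 FPKM in triple mutants, 51.0 in double mutants and 35.5 in wild type, with none called, and their part in these levels was not tested. Across all 8 described inward rectifiers, 7 lay lower in triple than in double mutants, with a median log2 difference of -0.26. Of them 1 was called, where 1.25% of all tested genes were, and 6 of 8 were highest in double mutants, against 33.2% of all genes at 1 FPKM or more.

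**Figure D2:**
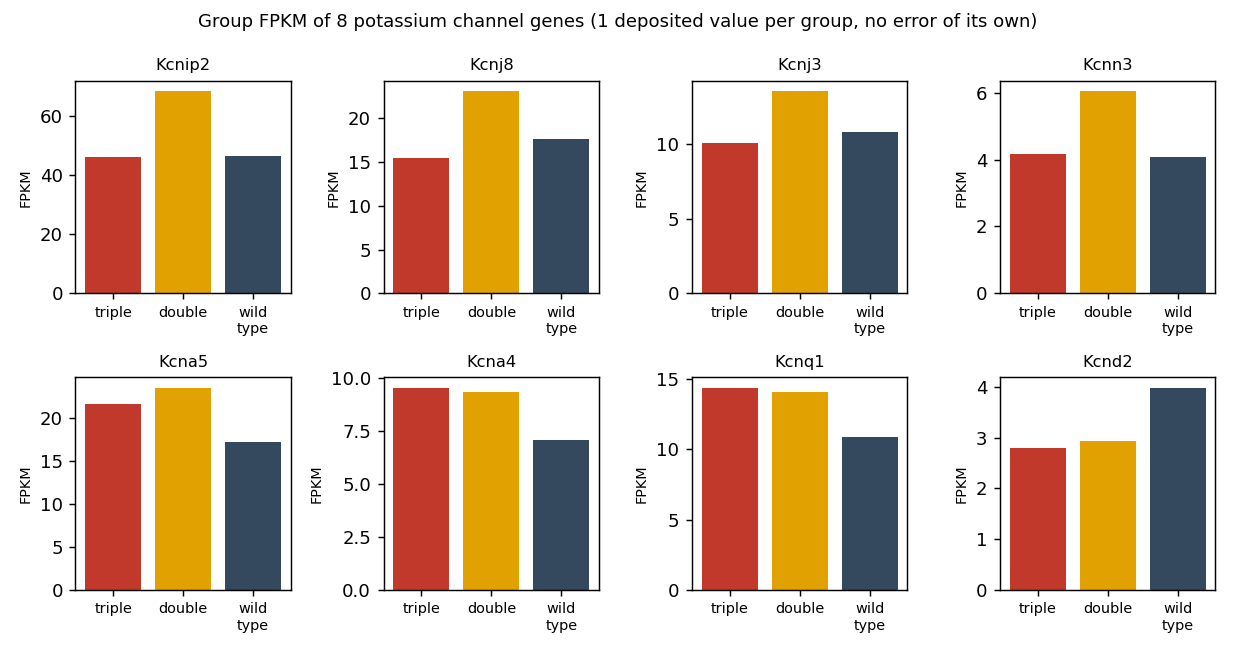
Group FPKM of 8 potassium channel genes as bars from 0, with triple mutant, double mutant and wild type from left to right and 1 deposited value per bar. Kcnip2 (68.4 FPKM) and Kcnj8 (23.1 FPKM) stand highest in double mutants, whereas Kcnd2 is lower in triple mutants (2.79 FPKM) and double mutants (2.94 FPKM) than in wild type (3.99 FPKM).

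Several of the remaining voltage-gated pores of the ventricle had their lowest value in wild type. Kcna5, which carries the ultrarapid delayed rectifier, was at 21.7 FPKM in triple mutants, 23.6 in double mutants and 17.3 in wild type. Its difference of 0.45 between double mutants and wild type did not pass the threshold in the authors' deposited table (q = 0.0663), and it did when q-values were adjusted within that comparison alone (q = 0.0460). Kcna4, pore of the slow transient outward current, was at 9.56 FPKM in triple mutants, 9.36 in double mutants and 7.06 in wild type (authors' deposited table, q = 0.114 for triple mutants against wild type). Kcna5 and Kcna4 were thus lowest in wild type, as was Kcnq1, without a call. Kcnc1 was near 0, with 0.0397 FPKM in triple mutants, 0.00903 in double mutants and 0.0172 in wild type. Over the 11 described voltage-gated pore genes, the median log2 difference was 0.32 for triple mutants against wild type, -0.08 for triple against double mutants and 0.23 for double mutants against wild type, and Cuffdiff called 0 in each comparison, against 1.52%, 1.25% and 2.65% of all tested genes in that order of comparisons. At an unadjusted p under 0.05 there were 5 of 9 tested for triple mutants against wild type (12.1% of all tested genes), 1 of 8 for triple against double mutants (8.45%) and 5 of 10 for double mutants against wild type (16.3%). Kcnd1 and Kcna7 reached 1 FPKM only in the mutant groups, so that threshold fixed their rise over wild type. Both genes enter the medians against wild type, and Kcnd1 is among the 5 of 10.

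Among the lower voltage-gated genes, Kcnq5, a pore related to Kcnq1, was at 2.98 FPKM in triple mutants, 1.59 in double mutants and 1.55 in wild type. Its difference of 0.95 between triple mutants and wild type was the nearest to a call of that comparison (authors' deposited table, q = 0.0708), and its locus is shared with other genes. Its difference of 0.91 between triple and double mutants did not pass either (authors' deposited table, q = 0.0967). X-linked Kcnd1, a relative of Kcnd2, had the widest ratio among the described genes, with 1.13 FPKM in triple mutants, 1.61 in double mutants and 0.371 in wild type. It entered the described set through the mutant groups, so a difference was built into its selection, and it did not pass the test (authors' deposited table, q = 0.136 for double mutants against wild type).

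The tandem-pore leak channels, which pass potassium at rest, were led by Kcnk3, an acid-sensitive channel. Kcnk3 was at 52.8 FPKM in triple mutants, 56.5 in double mutants and 62.8 in wild type. Kcnk2, a stretch-sensitive channel, was at 5.76 FPKM in triple mutants, 7.46 in double mutants and 6.09 in wild type. Kcnk3 was highest in wild type and Kcnk2 in double mutants, with no call for either. Kcnk7, whose product has no known current of its own, was at 2.54 FPKM in triple mutants, 2.25 in double mutants and 4.46 in wild type. Its differences from wild type of -0.81 in triple mutants and -0.98 in double mutants did not pass (authors' deposited table, q = 0.280 for triple and 0.158 for double mutants).

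The small-conductance calcium-activated channels were represented by Kcnn1, Kcnn2 and Kcnn3. Kcnn3 was at 4.18 FPKM in triple mutants, 6.04 in double mutants and 4.09 in wild type. The double mutant stood highest, and neither difference passed the test (authors' deposited table, q = 0.224 for triple against double mutants and 0.172 for double mutants against wild type). Kcnma1, the pore of the large-conductance calcium-activated channel, was listed at 0 in both mutant groups and at 0.0631 FPKM in wild type. Of the auxiliary subunits of that channel, Kcnmb4 was at 3.19 FPKM in triple mutants, 1.99 in double mutants and 2.44 in wild type, at a shared locus. Kcnmb1 barely reached the threshold, and Kcnmb2 (at most 0.286 FPKM) and Kcnmb3 (at most 0.105 FPKM) were under it. Of the Kcne relatives, X-linked Kcne1l was at 4.55 FPKM in triple mutants, 3.63 in double mutants and 5.35 in wild type, without a call. Kcne2, an auxiliary subunit 47.9 kb from Kcne1 on chromosome 16, was at 0.332 FPKM in triple mutants, 0.157 in double mutants and 0.349 in wild type. Neighbouring channel genes could thus differ widely in level, and the same held for Kcnj2 and Kcnj16, 38.2 kb apart on chromosome 11, where Kcnj16 reached at most 0.0117 FPKM. Apart from 1 described gene that is not reported here, the described genes not named singly ranged from Kcnab3 to Kcnn2. Kcnab3, a cytoplasmic subunit of voltage-gated channels, reached at most 1.05 FPKM and Kcnn2 at most 7.27 FPKM. None of the genes in that range that are not named singly was called.

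Counted over the set, few genes were called. For triple mutants against wild type, 0 of 33 tested genes passed the Cuffdiff test in the authors' deposited table, where 1.52% of all tested genes did, 1.16% higher and 0.362% lower. At an unadjusted p under 0.05 there were 7 of 33 (21.2%), 5 higher and 2 lower, against 12.1% of all tested genes. For triple against double mutants, 2 of 32 passed, both lower, where 1.25% of all tested genes were called, 0.704% higher and 0.547% lower. At an unadjusted p under 0.05 there were 9 of 32 (28.1%), 2 higher and 7 lower, against 8.45%. For double mutants against wild type, 1 of 33 passed, higher, where 2.65% of all tested genes were called, 1.89% higher and 0.767% lower. At an unadjusted p under 0.05 there were 13 of 33 (39.4%), 9 higher and 4 lower, against 16.3%. Kcnd1, whose rise over wild type was fixed by the 1 FPKM threshold, is among the 9 higher. At a q-value under 0.1, where the authors' own mark of significance falls, the deposited table calls 1 of 33 channel genes for triple mutants against wild type (2.75% of all tested genes), 3 of 32 for triple against double mutants (1.98%) and 2 of 33 for double mutants against wild type (4.41%). Such calls are too few to read a share from.

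The median log2 difference of the 39 genes was -0.05 for triple mutants against wild type, with 16 above 0 and 23 below. It was -0.12 for triple against double mutants, with 15 above and 24 below, and 0.17 for double mutants against wild type, with 25 above and 14 below. Of the 39 genes, 33 were at 1 FPKM or more in every group. The rest entered through some groups only, so the 1 FPKM threshold fixed some of their directions. Over all genes at 1 FPKM or more the 3 medians lay within 0.01 of 0. Among the 20 channel genes at 5 FPKM or more in a group the median was -0.03 for triple mutants against wild type, -0.19 for triple against double mutants and 0.27 for double mutants against wild type. In those 20 genes 16 lay lower in triple than in double mutants, and 16 lay higher in double mutants than in wild type. Both counts use the double mutant value of each gene and are not independent. Of all genes at that level with a fold change, 49.1% lay higher in triple than in double mutants. The share higher in double mutants than in wild type was 52.0%. Genes such as Kcnn3 reached 5 FPKM only in double mutants, and Kcne1l only in wild type, so some directions were fixed by that threshold.

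**Figure D3:**
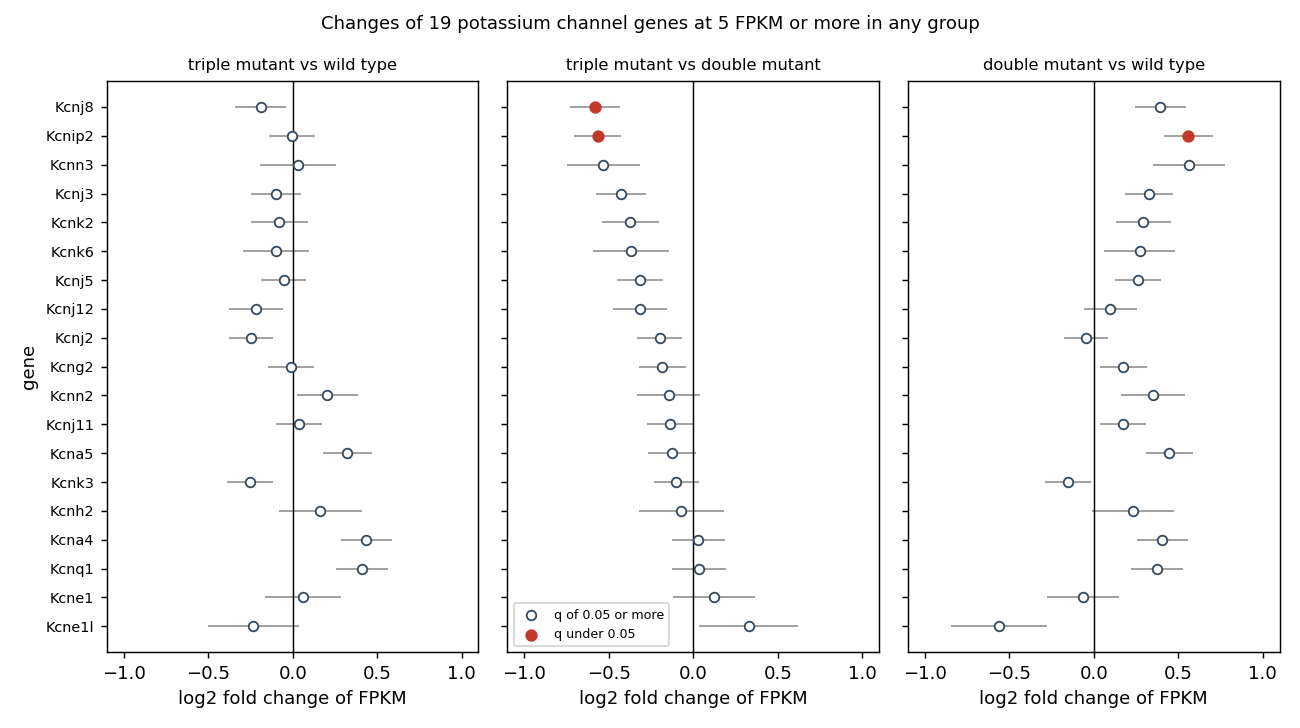
Log2 fold change of FPKM for 19 of the 20 genes at 5 FPKM or more in a group, 1 panel per comparison, 1 point per gene, with filled points for genes called by the authors' test and bars for the standard error implied by the deposited p-value. Points lie mostly left of 0 for triple against double mutants (15 of 19) and right of 0 for double mutants against wild type (15 of 19), and the called points are Kcnip2 and Kcnj8. Genes such as Kcnn3 reached 5 FPKM only in double mutants, which fixed their direction in both of these panels.

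Seen by group, the double mutant held the highest FPKM for 14 of these 20 genes (70%), against 35.4% of the 9698 genes at that level with a value in every group. The triple mutant was highest for 3 and wild type for 3 of the 20. Because a gene can enter this set through its highest group, the count was repeated for the 17 genes with a mean over the groups of 5 FPKM or more, where the double mutant was highest for 12 (70.6%), against 35.8% of all genes. Among the 19 lower genes the double mutant was highest for 5, the triple mutant for 5 and wild type for 9. These are counts over genes of the same groups, with no test of the group difference behind them.

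**Figure D4:**
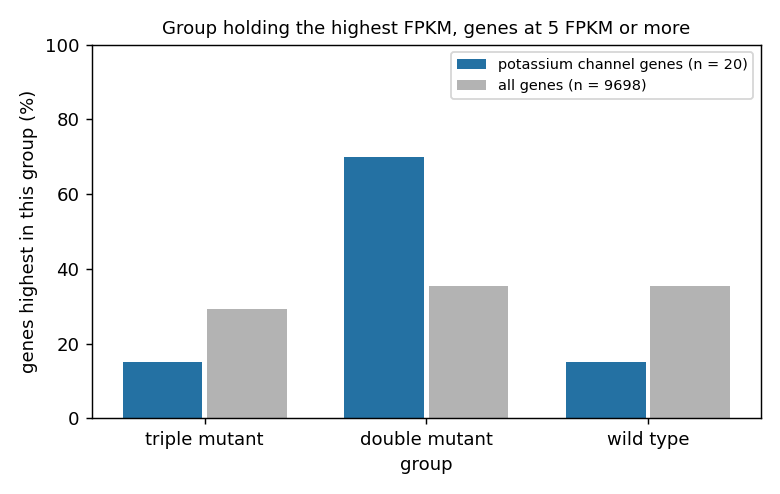
Share of genes whose highest FPKM is in the triple mutant, double mutant or wild type group, for the 20 potassium channel genes and for all 9698 genes at 5 FPKM or more in a group. The double mutant bar is 70% for channel genes and 35.4% for all genes.

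Outside the Kcn symbols, 22 partners and regulators of potassium channels were looked up, and 17 were measured at 1 FPKM or more, while Ank2 holds a failed estimate from too many fragments. Irx5, a homeodomain factor known to repress Kcnd2 in mouse ventricle, was at 10.3 FPKM in triple mutants, 10.7 in double mutants and 5.64 in wild type. In the authors' deposited table Irx5 rose by 0.87 on the log2 scale in triple mutants and by 0.92 in double mutants, each over wild type (q = 0.0066 for both). Irx3, its relative, which acts in ventricular conduction, was at 75.4 FPKM in triple mutants, 72.4 in double mutants and 48.0 in wild type, at a shared locus. Irx3 rose by 0.65 in triple mutants and by 0.59 in double mutants over wild type in the authors' deposited table (q = 0.0066 for both). Cav3, the muscle caveolin, was at 229 FPKM in triple mutants, 240 in double mutants and 167 in wild type. Cav3 rose by 0.52 in double mutants over wild type (q = 0.0184) and lay 0.46 higher in triple mutants without passing (q = 0.0511), in the authors' deposited table. With the statistic read as a normal z, Irx5, Irx3 and Cav3 lost their calls as well. Irx5 and Irx3 stood higher in both mutant groups, where the Kcnd2 values were lower without a call, and any link between these was not tested. Of the partners tested, 2 of 17 rose and none fell for triple mutants against wild type (1.52% of all tested genes called), and 3 of 17 rose and none fell for double mutants against wild type (2.65% called). Cuffdiff called 0 of 16 for triple against double mutants (1.25% of all tested genes), with 0 at an unadjusted p under 0.05 (8.45%). The list of partners was chosen with earlier results of these data known, so no excess among partners can be read from these counts.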

How the data were processed

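Ventricular RNA was made into stranded total RNA libraries, per the labels' protocols. The submitters' processing notes name STAR 2.5.2 and CASAVA 1.8, then Cuffdiff 2.2.1 with Cufflinks 2.2.1, and mm9. No source used here names the annotation. Each gene and group has 1 FPKM deposited by the authors, and each comparison has a deposited log2 fold change, p-value, q-value and Cuffdiff statistic (a score). Depth per sample is not kept in such values, so no counting interval can be given. The log2 fold change as deposited is the log2 ratio of FPKM values (largest difference 4.7215e-05), and the q-value equals a Benjamini-Hochberg adjustment over all 3 comparisons (largest difference 5.26442e-07).

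From these, group levels, medians and counts were computed with Python 3.11.15, pandas 2.3.3 and numpy 2.4.6, and plotted with matplotlib 3.10.9. No new test across samples was possible. Values for too many fragments are failed estimates and were treated as missing, with none among the Kcn genes. Loci listed at the same coordinates for several genes are called shared, which applied to 12 of the 39 described genes. Coordinates of the table are mm9, and GENCODE M21 gave only gene spans and transcript lengths. RefSeq promoters matched 70 of the 96 gene IDs. The script was tested on simulated data. Members and lists were chosen with earlier results of these data known. Named genes were the called members, the ventricular repolarising list, the 10 highest members, each comparison's 2 largest rises and falls at 5 FPKM or more, called partners, and Abcc8, Abcc9, Dpp6 and Dpp10. Of these, 1 gene is counted in the totals but not reported here. Kcnj3, Kcnk2, Kcnk7, Kcnq5, Kcnd1, Kcna7, Kcnmb1, Kcnmb2, Kcnmb3, Kcnmb4, Kcnma1, Kcnip3, Kcne2, Kcnn2, Kcnab3 and Kcnj16 were named after their values were seen.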

Additional observations from a re-analysis of the deposited data

How the results depend on the processing

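No paired analysis was possible because the table holds 1 value per group and none per sample, and leaving out a replicate was not run for the same reason. The calls among channel genes were 0 for triple mutants against wild type, 2 for triple against double mutants and 1 for double mutants against wild type. At q under 0.1, the authors' own mark, there were 1 (Kcnq5) for triple mutants against wild type, 3 for triple against double mutants, with Kcnq5 added, and 2 for double mutants against wild type, with Kcna5 added. Adjusting q within the comparison of double mutants with wild type also gave 2, with Kcna5 added at q = 0.0460. An alternative chosen after seeing the data read the deposited statistic as a normal z and adjusted within the comparison. It gave 0 for triple against double mutants and 0 for double mutants against wild type, so the calls of Kcnip2 and Kcnj8 rest on the deposited p-values, whose z was a median 1.76 times the statistic. Over all genes that reading left 4 calls for triple mutants against wild type, 4 for triple against double mutants and 9 for double mutants against wild type. Irx3, Irx5 and Cav3 also lost their calls under it. With no FPKM minimum the median log2 difference for triple against double mutants was 0.01 in place of -0.12. A pseudocount of 1 FPKM and centring on the median of all genes were run for 22 of the 27 genes named by rule, those at 1 FPKM or more, and neither reversed a called direction. They give no q-value, so they do not bear on the calls. Low genes and shared loci limit what can be said of genes under 5 FPKM, and depth could not be assessed.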
